A study of Mus musculus with 13 samples.

Results

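Levels of 5 small nucleolar RNA (snoRNA) host genes, Gas5, Snhg1, Snhg5, Snhg8 and Snhg12, were followed beside those of 2 nuclear long noncoding RNAs, Neat1 and Malat1, in mouse breast carcinoma cells exposed to doxorubicin (DOX) and interleukin-17A (IL-17A). The genes were chosen by symbol, and all 7 were found among the 13222 genes listed. All 7 also passed the filter on low values that left 12319 genes to test. Bulk RNA of cultured 4T1-Thy1.1 cells, the BALB/c mammary carcinoma line 4T1 carrying the cell surface antigen Thy1.1 as a transgene, had been sequenced in 13 libraries of 4 conditions. Control cells (replicates 1, 3 and 5) received neither agent, DOX cells (replicates 1 to 4) received 200 ng/mL doxorubicin, IL-17A cells (replicates 2, 3 and 5) received 25 ng/mL recombinant IL-17A, and DOX+IL-17A cells (replicates 2, 3 and 5) received both, each for 48 h. The study's methods give these doses together with its viability assay, and their section on bulk RNA sequencing names no dose. All groups are the same line grown in wells of a culture plate, with no other cell type added. Doxorubicin is an anthracycline that poisons topoisomerase II, and the question of the design was whether IL-17A, an inflammatory cytokine of T cells, changes the response of the cancer cells to it. The study's statistics section speaks of biological replicates in general, but nothing in the labels says that these libraries came from separate cultures, so the p-values measure the spread between them, which may be technical.

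snoRNAs guide the methylation and pseudouridylation of ribosomal RNA, and most of them are cut from the introns of host genes. The spliced exons of a noncoding host are exported and, for several hosts, degraded in the cytoplasm by nonsense-mediated decay while they are translated, and hosts of the Gas5 kind start with a run of pyrimidines like that of ribosomal protein genes (a 5′ terminal oligopyrimidine, or TOP, start). Neat1 builds the nuclear bodies called paraspeckles and Malat1 gathers in nuclear speckles, where splicing factors are stored.

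In the GENCODE M21 annotation of GRCm38 (mm10), Gas5 lies at chr1:161034422-161038539 on the plus strand, and 9 separate snoRNA positions, among them Snord47, Snord78 and Snord80, fall inside it. Snhg1 lies at chr19:8723475-8726443 on the plus strand around 8 snoRNAs, Snord22 among them. Snhg12 lies at chr4:132308623-132311024 on the plus strand around 4 snoRNA positions, Snora16a, Snora44, Snora61 and Snord99. Snhg5 (chr9:88521050-88522929, minus strand) holds Snord50a and Snord50b, and Snhg8 (chr3:123507552-123508404, minus strand) holds Snora24 alone. Neat1 (chr19:5824708-5845478) and Malat1 (chr19:5795690-5802672) are minus strand neighbours, 22035 bases apart, and hold no snoRNA. Gas5 overlaps Zbtb37 on the other strand over 428 bases, and Malat1 overlaps the gene model Gm37376 on the other strand over 453 bases, and as the strand setting of the counting is not given in the sources used here, reads of such partners cannot be told apart.

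The libraries were primed at poly(A), so the reads of a polyadenylated transcript are expected from its last stretch, and these ends are shown for that reason. The last 60 bases of the widest annotated transcript of each gene, and of a short Neat1 isoform, are given 5′ to 3′, with the poly(A) signals AATAAA and ATTAAA in capitals where present.
Gas5 (chr1:161038480-161038539, plus strand): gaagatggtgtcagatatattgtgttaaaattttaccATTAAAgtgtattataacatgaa
Snhg1 (chr19:8726384-8726443, plus strand): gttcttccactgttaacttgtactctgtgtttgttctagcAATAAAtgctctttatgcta
Snhg5 (chr9:88521050-88521109, minus strand): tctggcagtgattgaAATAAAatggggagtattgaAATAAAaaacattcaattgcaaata
Snhg8 (chr3:123507552-123507611, minus strand): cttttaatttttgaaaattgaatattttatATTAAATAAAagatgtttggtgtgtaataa
Snhg12 (chr4:132310965-132311024, plus strand): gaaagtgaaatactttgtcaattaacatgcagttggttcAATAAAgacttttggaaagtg
Neat1, long isoform (chr19:5824708-5824767, minus strand): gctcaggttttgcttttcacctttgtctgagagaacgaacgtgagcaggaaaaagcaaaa
Neat1, short isoform (chr19:5842307-5842366, minus strand): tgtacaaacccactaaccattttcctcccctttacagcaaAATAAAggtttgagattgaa
Malat1 (chr19:5795690-5795749, minus strand): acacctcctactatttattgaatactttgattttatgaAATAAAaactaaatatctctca
Each of the 5 host transcripts held at least 1 signal in these 60 bases, and so did the short Neat1 isoform and Malat1. The 20771-base Neat1 isoform held none, and since the table gives 1 value per gene, the 2 Neat1 isoforms shown cannot be told apart. The hosts are short once spliced, from 430 bases (Gas5) to 896 bases (Snhg12), against 6983 bases for the single exon of Malat1. A transcript that ends without a poly(A) tail would have to be primed at runs of A inside it. The longest such run was 12 bases in Malat1, 7 in the long Neat1 isoform and 4 to 7 in the hosts. Where in each transcript the reads lay was not tested.

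The start regions of the hosts are shown because the TOP run is the feature by which host genes of this family resemble ribosomal protein genes. Each window runs from 50 bases before to 20 bases after the start of transcription in RefSeq (GRCm38.p6), and capitals mark the longest run of C and T that reached within 5 bases of that start. RefSeq gives Gas5 a pair of starts, and the downstream one is shown.
Gas5 (chr1:161035116-161035185, plus strand): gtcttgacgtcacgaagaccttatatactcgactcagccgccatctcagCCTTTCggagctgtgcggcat
Snhg1 (chr19:8723437-8723506, plus strand): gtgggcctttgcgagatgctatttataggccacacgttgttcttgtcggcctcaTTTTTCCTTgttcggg
Snhg5 (chr9:88522878-88522947, minus strand): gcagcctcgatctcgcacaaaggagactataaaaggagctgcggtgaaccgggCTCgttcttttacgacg
Snhg8 (chr3:123508317-123508386, minus strand): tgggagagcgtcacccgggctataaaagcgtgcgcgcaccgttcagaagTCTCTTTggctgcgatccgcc
Snhg12 (chr4:132308628-132308697, plus strand): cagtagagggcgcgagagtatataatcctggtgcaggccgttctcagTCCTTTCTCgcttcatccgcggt
The run was 9 bases long in Snhg1 and Snhg12, 7 in Snhg8, 6 in Gas5 and 3 in Snhg5, and a run of at least 7 was found at 3 of the 6 host promoters and 14.1% of the 32851 promoters in the table. At the upstream start of Gas5 the run was 3 bases, and the run of Snhg1 began 4 bases past its start. In the Snhg5 window a longer run of C and T follows the marked one, just outside the reach of 5 bases. The short run given for Snhg5 therefore depends on that limit and on the annotated start. Whether the runs open the transcripts of these cells was not tested. Malat1 had a run of 4, and Neat1 was not matched in the promoter table. In the full 300 bases of each promoter, searched on both strands, CACGTG and TGCGCA were found in 0 of the 7 promoters of the members (7.15% and 7.76% of all promoters), GGGCGG in 5 (35.7%), CCAAT in 2 (37.4%) and TATAAA in 3 (13.6%). The 3 promoters with TATAAA were those of Snhg1, Snhg5 and Snhg8. These matches describe the letters in the windows only.

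Values are the normalized signal that the authors deposited, reads scaled to library size (CPM) with factors from the trimmed mean of M-values (TMM). Every value was a whole multiple of what 1 read is worth in its library, and the libraries held between 4445592 and 16930600 reads assigned to genes. Control replicate 1 stood apart from the other 12 libraries on the second principal component of all genes, at 74.7 against values between -42.9 and 23.4. The 6 markers fixed for 4T1 epithelial cells were all listed, with a summed signal of 1753 to 2206 in control, 1464 to 1828 in IL-17A, 937 to 1045 in DOX and 823 to 1046 in DOX+IL-17A libraries. Ptprc and Itgam, the 2 of 5 immune markers listed, summed to 3.18 to 3.87 with DOX+IL-17A and to at most 2.85 elsewhere. The 4 fibroblast markers summed to 23.8 to 97.8 over all libraries, and the 4 muscle markers to 182 in DOX replicate 1 and at most 25.5 elsewhere. The 2 of 3 red blood cell markers listed were also highest in DOX replicate 1, at 23.1, against at most 5.24 elsewhere. The part of any of these in the results was not tested. In such bulk RNA, fewer cells that use a gene and less RNA of it per cell cannot be told apart.

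Neat1 fell in both groups that received DOX. Its signal was 48.7, 21.4 and 19.4 in control replicates 1, 3 and 5, and 17.9, 17.8 and 28.4 in IL-17A replicates 2, 3 and 5. With DOX alone it was 7.97, 6.79, 11.6 and 5.81 in replicates 1 to 4, and with both agents 3.48, 7.65 and 9.36 in replicates 2, 3 and 5. All 7 libraries with DOX lay below all 6 libraries without it. The share of all tested genes that separate in this way is not given here. Between DOX and control alone, the libraries did not overlap for 33.7% of all tested genes. These values rest on few reads, between 17 in DOX+IL-17A replicate 2 and 351 in control replicate 3. The mean was 29.8 ± 16.4 (SD, n = 3) in control and 8.04 ± 2.53 (SD, n = 4) with DOX, 3.71-fold lower. On the log2(value + 1) scale of the fit, which understates the change of low genes, the difference was -1.69 ± 0.38 (SE), with an adjusted p of 0.0064 in limma. Against control, DOX+IL-17A gave -1.94 ± 0.41 (adjusted p = 0.0053), and against IL-17A alone it gave -1.57 ± 0.41 (adjusted p = 0.021). Control replicate 1 held the highest Neat1 signal of all, and without it the change with DOX was -1.28 (adjusted p = 0.022). The difference between DOX+IL-17A and IL-17A alone missed the threshold without DOX+IL-17A replicate 2 (adjusted p = 0.090), without IL-17A replicate 3 (0.051) and without IL-17A replicate 5 (0.081).

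Malat1 was lowest with both agents together. It held 2158, 5200 and 3779 in control replicates 1, 3 and 5, and 3493, 3843 and 2839 in IL-17A replicates 2, 3 and 5. With DOX alone the 4 libraries held 3332, 2511, 3730 and 3041, within the range of the control libraries. With DOX+IL-17A the 3 libraries held 1546, 2244 and 1686. They lay below every DOX and every IL-17A library, but DOX+IL-17A replicate 3 lay above control replicate 1. The mean with both agents was 1825 ± 369 (SD, n = 3), against 3712 ± 1522 (SD, n = 3) in control, 3153 ± 513 (SD, n = 4) with DOX and 3392 ± 510 (SD, n = 3) with IL-17A. The fit gave -0.95 ± 0.30 against control (adjusted p = 0.039), short of the 2-fold limit, -0.90 ± 0.30 against IL-17A (adjusted p = 0.058) and -0.79 ± 0.28 against DOX (adjusted p = 0.47). For DOX alone against control it gave -0.16 ± 0.28 (adjusted p = 0.71). The difference from control missed the threshold in 7 of the 13 fits that left out 1 library: the adjusted p was 0.13 without control replicate 3, 0.12 without DOX+IL-17A replicate 2, 0.10 without control replicate 5, 0.082 without DOX+IL-17A replicate 5 and 0.055, 0.051 and 0.056 without DOX replicate 1, 3 and 4. It was 0.18 when only the 2 groups entered the fit, 0.094 with scaling by library size and 0.0016 without control replicate 1. The difference from IL-17A passed with voom (adjusted p = 0.043), DESeq2 (0.020), edgeR (0.049) and the replicate block (0.035), and also without control replicate 1 (0.0077) or 3 (0.037).

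Snhg5, host of the snoRNAs Snord50a and Snord50b, was higher in every library that received DOX. It held 51.4, 58.3 and 57.1 in control replicates 1, 3 and 5, and 62.5, 60.8 and 58.6 in IL-17A replicates 2, 3 and 5. With DOX it held 79.2, 90.2, 116 and 101 in replicates 1 to 4, and with DOX+IL-17A 78.7, 118 and 112 in replicates 2, 3 and 5. All 7 libraries with DOX lay above all 6 without, and for this too the share of all tested genes is not given here. The mean rose from 55.6 ± 3.67 (SD, n = 3) to 96.6 ± 15.7 (SD, n = 4) with DOX, 1.74-fold, so it passed the adjusted p but not the 2-fold limit. The log2 differences were 0.77 ± 0.20 for DOX against control (adjusted p = 0.012), 0.86 ± 0.21 for DOX+IL-17A against control (adjusted p = 0.012) and 0.73 ± 0.21 for DOX+IL-17A against IL-17A (adjusted p = 0.032). When only the libraries of the 2 groups entered the fit, the adjusted p of the last 2 was 0.092 and 0.066. The difference between DOX+IL-17A and IL-17A also missed the threshold in 5 of the 6 fits that left out 1 library of its own groups, every one but the fit without DOX+IL-17A replicate 2, and there the adjusted p lay between 0.060 and 0.122. Without DOX+IL-17A replicate 3, that against control had an adjusted p of 0.056.

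**Figure D1:**
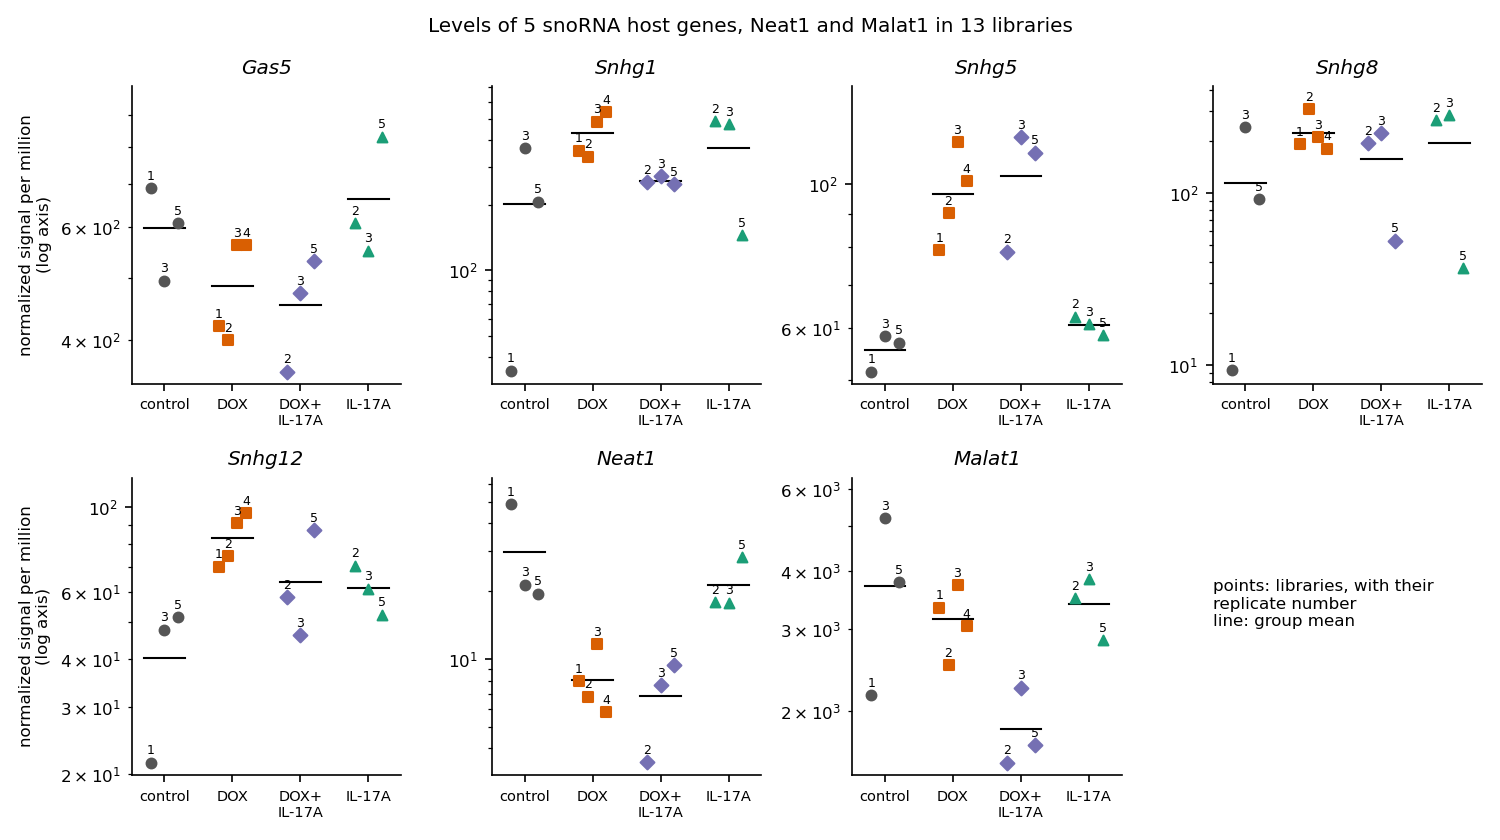
Normalized signal (log axis) of the 7 genes in each of the 13 libraries, by condition, with each point numbered by its replicate and a line at the group mean. Neat1 in the 7 libraries with DOX (3.48 to 11.6) lies below every library without it (17.8 to 48.7), and Snhg5 with DOX (78.7 to 118) lies above every library without it (51.4 to 62.5). The share of all tested genes that separate in this way is not given here.

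Snhg12, host of Snora16a, Snora44, Snora61 and Snord99, rose with DOX alone. It held 21.5, 47.9 and 51.6 in control replicates 1, 3 and 5 and 70.0, 74.6, 91.0 and 96.6 in DOX replicates 1 to 4, with no overlap. With DOX+IL-17A it held 58.3, 46.3 and 87.1, and with IL-17A alone 70.4, 61.3 and 52.4, in replicates 2, 3 and 5. The IL-17A libraries all lay above the control libraries, and the DOX+IL-17A libraries overlapped with each other group. DOX raised the mean 2.06-fold, from 40.3 ± 16.4 (SD, n = 3) to 83.0 ± 12.8 (SD, n = 4), a log2 difference of 1.11 ± 0.29 (adjusted p = 0.014). The lowest control library decided that it passed the 2-fold limit: without control replicate 1 the log2 difference was 0.72 (adjusted p = 0.043). Against control, DOX+IL-17A gave 0.70 ± 0.31 (adjusted p = 0.13) and IL-17A alone 0.68 ± 0.31 (adjusted p = 0.96).

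Snhg1, the host with 8 snoRNAs, did not pass the test in any comparison. It held 34.5, 368 and 208 in control replicates 1, 3 and 5 and 357, 335, 486 and 538 in DOX replicates 1 to 4. With DOX+IL-17A it held 255, 273 and 250, and with IL-17A alone 487, 473 and 146, in replicates 2, 3 and 5. The DOX+IL-17A libraries lay close together (SD 11.9) and all below the DOX libraries, while the control libraries reached from the lowest value of all 13 into the range of the DOX libraries. The log2 difference of DOX from control was 1.59 ± 0.58 (adjusted p = 0.061), 0.60 without control replicate 1 (adjusted p = 0.26) and 2.29 without control replicate 3 (adjusted p = 0.0086). It also passed the adjusted p without IL-17A replicate 5 (0.042) and with scaling by library size (0.047). DOX+IL-17A differed from DOX by -0.69 ± 0.58 (adjusted p = 0.998).

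Snhg8, host of Snora24, showed the widest range of the 7 genes, 33.0-fold from its lowest to its highest library. It held 9.30, 242 and 92.6 in control replicates 1, 3 and 5, the first from 55 reads, and 193, 307, 212 and 181 in DOX replicates 1 to 4. With DOX+IL-17A it held 195, 224 and 53.0, and with IL-17A alone 265, 285 and 36.7, in replicates 2, 3 and 5. Within each of these last 2 groups replicate 5 was several-fold below the others. DOX differed from control by 1.83 ± 0.86 on the log2 scale (adjusted p = 0.14), and by 0.54 without control replicate 1 (adjusted p = 0.60) and 2.82 without control replicate 3 (adjusted p = 0.023). For DOX+IL-17A against control the value was 1.12 ± 0.92 (adjusted p = 0.43), and without control replicate 1 it was -0.17.

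Gas5, a host named for its rise in growth-arrested cells, did not pass the test in any comparison. It held 691, 495 and 609 in control replicates 1, 3 and 5, and 609, 551 and 831 in IL-17A replicates 2, 3 and 5. With DOX it held 420, 400, 563 and 562 in replicates 1 to 4, and with DOX+IL-17A 356, 473 and 530 in replicates 2, 3 and 5. The groups with DOX were the lower ones by mean, 486 ± 88.4 (SD, n = 4) and 453 ± 88.7 (SD, n = 3) against 598 ± 98.4 (SD, n = 3) in control, but both overlapped with control. The log2 difference was -0.30 ± 0.22 for DOX (adjusted p = 0.33) and -0.41 ± 0.23 for DOX+IL-17A (adjusted p = 0.24). DOX+IL-17A lay below IL-17A alone in every library, at -0.55 ± 0.23 (adjusted p = 0.13).

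By group mean, the order of Neat1 was control, IL-17A, DOX and DOX+IL-17A, and of these neighbours only IL-17A and DOX did not overlap. Malat1 had the same order, with DOX and DOX+IL-17A the only neighbours that did not overlap. Snhg5 went from DOX+IL-17A over DOX and IL-17A to control, where DOX+IL-17A and DOX overlapped and the other 2 steps did not. Snhg12 went from DOX over DOX+IL-17A and IL-17A to control, and only its last step was free of overlap. For Snhg1 and Snhg8 the order was DOX, IL-17A, DOX+IL-17A and control, and for Gas5 it was IL-17A, control, DOX and DOX+IL-17A, with overlap at every step.

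Against control, DOX alone moved 2 of the 7 genes past an adjusted p of 0.05 and a 2-fold change, Snhg12 upward and Neat1 downward, where 15.3% of all 12319 genes were called. By adjusted p alone Snhg5 joined them, 3 of 7 against 22.1% of all genes. DOX+IL-17A against control called 1 of 7, Neat1, where 12.9% of all genes were called, and by adjusted p alone 3 of 7, Neat1, Malat1 and Snhg5, against 17.7%. DOX+IL-17A against IL-17A called 1 of 7, Neat1, where 9.84% of all genes were called, and Neat1 and Snhg5 by adjusted p alone, against 13.3%. These comparisons share libraries and are not independent of each other. The groups did not overlap for 3 of 7 genes between DOX and control (Snhg5, Snhg12 and Neat1), as for 33.7% of all genes, and for 2 of 7 between DOX+IL-17A and control (Snhg5 and Neat1), as for 30.1%. Between DOX+IL-17A and IL-17A they did not overlap for 4 of 7 (Gas5, Snhg5, Neat1 and Malat1), as for 32.0%. With 4 libraries against 3, the exact two-sided permutation test of one gene cannot go below 0.057, the value it gave for Snhg5, Snhg12 and Neat1 under DOX, and with 3 against 3 it cannot go below 0.1.

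**Figure D2:**
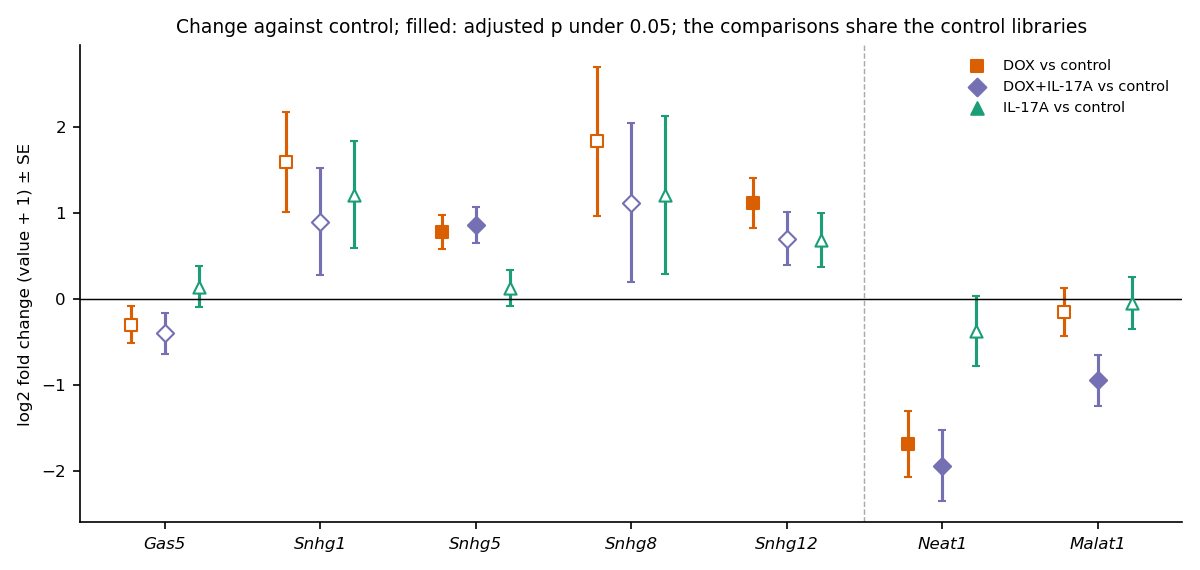
Log2 fold change on the log2(value + 1) scale with its SE for each gene in 3 comparisons with the same control libraries, filled where the adjusted p was under 0.05. Snhg5 and Snhg12 are filled above zero and Neat1 below it for DOX, and Malat1 is filled only for DOX+IL-17A, at -0.95.

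IL-17A by itself moved none of the 7 genes past the threshold. In limma 0 of 7 were called against control, 1 (Snhg12) had an unadjusted p under 0.05 (3.08% of all genes), and voom, DESeq2 and edgeR each called 0 on the recovered reads, where the call rule took 0.00812% of all genes. Added to DOX, IL-17A likewise gave 0 of 7 in limma and in each of these other tools, with 1 of 7 (Malat1) at an unadjusted p under 0.05 (6.35% of all genes), where 0.438% of all genes were called. For 2 of 7 genes, Malat1 and Snhg1, the DOX+IL-17A and DOX libraries did not overlap, as for 10.3% of all genes, and both were lower with DOX+IL-17A. For 2 of 7, Snhg5 and Snhg12, the IL-17A and control libraries did not overlap, as for 6.04% of all genes, and both were higher with IL-17A, although for Snhg5 the means were 60.6 and 55.6.

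The difference between the effect of IL-17A with DOX and its effect without DOX was tested directly. It was past the threshold for 0 of 7 genes and 0 of 12319 genes in limma (0%), and for 0 of the 7 in voom, DESeq2 and edgeR. At an unadjusted p under 0.05 there were 2 of the 7, Snhg1 (-1.91 ± 0.85, adjusted p = 0.90) and Snhg12 (-1.09 ± 0.43, adjusted p = 0.90), against 4.51% of all genes. For Snhg12, IL-17A alone differed from control by 0.68 and DOX+IL-17A from DOX by -0.41 on the log2 scale, and without control replicate 1 the difference for Snhg1 was -0.92. All 5 hosts had a negative value, with a median of -1.09, against a median of -0.06 over all tested genes. That median was -0.63, with 1 host above zero, without control replicate 1. Snhg5, at -0.04, turned just positive with scaling by library size (0.00016), with voom (0.0025) and with DESeq2 (0.022), which left 4 of the 5 negative.

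The hosts and the nuclear RNAs were then set side by side within each library, as the log2 difference of each gene from its mean over the control libraries. The median of the 5 hosts lay between 0.62 and 1.34 in the 7 libraries with DOX, with or without IL-17A, and between -0.78 and 0.88 in the 6 libraries without it. Neat1 lay between -2.66 and -1.17 with DOX and between -0.59 and 0.81 without. The gap between the host median and Neat1 was therefore 2.30 to 3.39 with DOX and -1.59 to 1.47 without, and these ranges did not overlap. For Malat1 the gap to the hosts was 0.94 to 1.53 with DOX, 1.61 to 1.89 with DOX+IL-17A, 0.37 to 0.88 with IL-17A and -0.24 to 0.33 in control, with no overlap between any 2 conditions. Both gaps are set in part by the genes' own differences given above and are a description, and the zero is the mean of 3 control libraries that differ widely. The host median of the fitted log2 fold changes was 1.11 for DOX against control, where that of all tested genes was 0.09, and Gas5 alone of the 5 was negative. Without control replicate 1 it was 0.60. For DOX+IL-17A it was 0.86, and without control replicate 1 it was -0.09, with 2 hosts of 5 above zero in place of 4. For IL-17A alone against control the host median was 0.68 with all 5 above zero, and 0.22 with 4 above zero without control replicate 1. Between DOX+IL-17A and IL-17A it was -0.09, with 2 of 5 above zero.

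**Figure D3:**
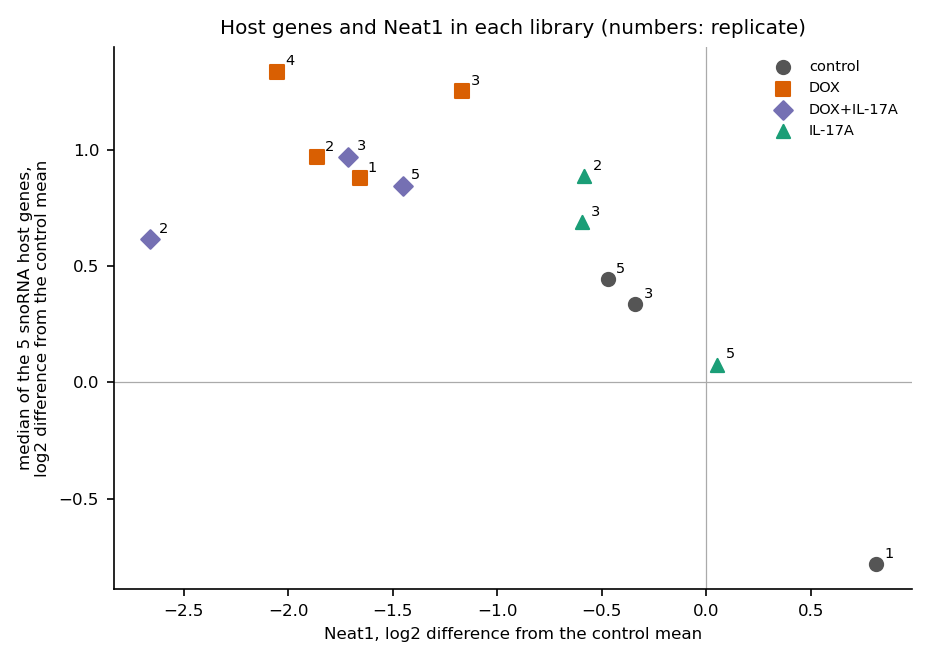
Each point is a library, numbered by replicate, with the log2 difference of Neat1 from the control mean on the x axis and the median log2 difference of the 5 host genes on the y axis. The 7 libraries with DOX lie at the upper left (Neat1 at -1.17 or lower, hosts at 0.62 or higher), and control replicate 1 lies alone at the lower right (0.81 and -0.78).

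Within a condition, Snhg1 and Snhg8 departed together in some libraries and apart in others. In control replicate 1 the log2 difference from the mean of the other 2 control libraries was -2.97 for Snhg1 and -3.87 for Snhg8, and 0.998% and 0.179% of the tested genes had a lower one. In IL-17A replicate 5 it was -1.71 for Snhg1 and -2.87 for Snhg8, with 2.06% and 0.122% of genes lower still. In DOX+IL-17A replicate 5 it was -1.96 for Snhg8 but -0.08 for Snhg1. In control replicate 1 the other members went either way, with -1.17 for Snhg12, -1.04 for Malat1, -0.16 for Snhg5, 0.33 for Gas5 and 1.22 for Neat1. Snhg6, a host outside the 7, was picked after its values were seen because it was low in the same libraries as Snhg8. It held 0.169 in control replicate 1, from 1 read, against 65.6 in control replicate 3, and 3.18 and 2.95 in replicate 5 of DOX+IL-17A and IL-17A, against 37.0 to 85.2 in the other libraries of these 2 groups. Its DOX libraries held 25.8, 84.9, 22.2 and 24.8. Control replicate 5 lay between the other 2 control libraries for each of these 3 hosts. Within each group that held both, replicate 5 lay below replicate 3 for each of them. The part of the library in these departures was not tested.

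**Figure D4:**
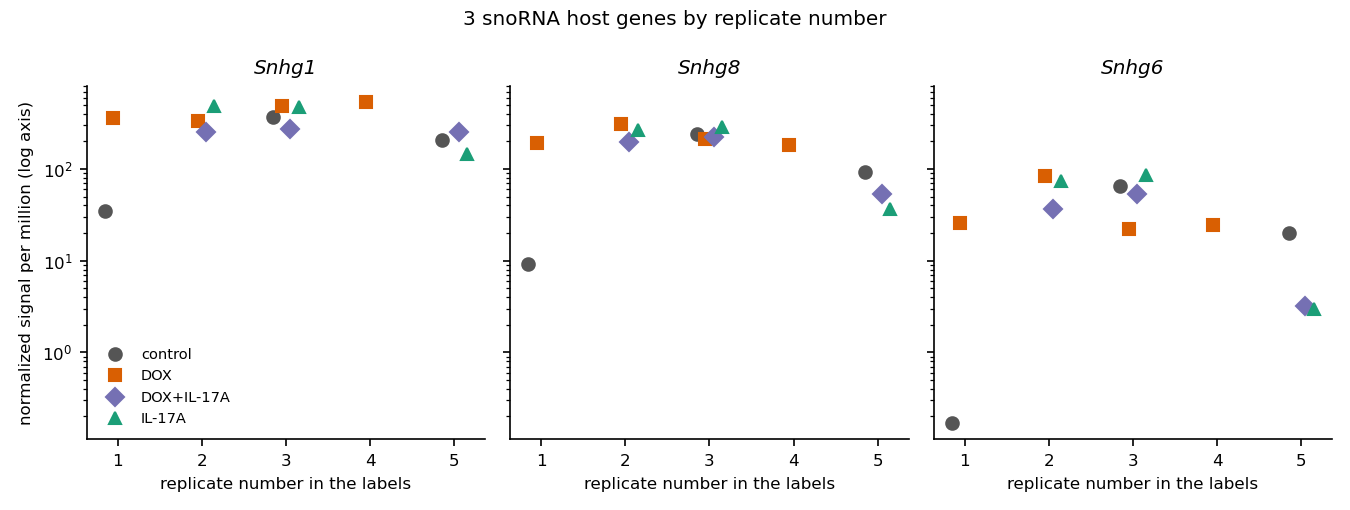
Normalized signal (log axis) of Snhg1, Snhg8 and Snhg6 against the replicate number in the labels, coloured by condition. Control replicate 1 is the lowest point in each panel (34.5, 9.30 and 0.169), and for Snhg8 and Snhg6 the replicates numbered 5 of DOX+IL-17A and IL-17A come next.

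For each gene the 2 most alike genes were taken from those above the median by mean signal, by the root mean square difference of the centred log2(value + 1) over the 13 libraries. For Neat1 these were the cell junction genes Pkp3 (0.28) and Ctnna1 (0.32), where the spread of Neat1 itself was 0.93 on this measure. For Malat1 they were Cep70 (0.18) and Atr (0.23), a centrosome protein and a DNA damage kinase, against a spread of 0.49. Snhg5 was nearest to Nudc (0.15) and Dnajc2 (0.15), which encode a chaperone-linked protein and a ribosome-bound cochaperone, against 0.41. Gas5 was nearest to Cbx5 (0.12) and Kif22 (0.14) and Snhg12 to Ddost (0.17) and Cenpl (0.20). Snhg8 was nearest to Gm11793 (0.25) and Snx3 (0.28), against a spread of 1.39, and Snhg1 to Thap11 (0.27) and Mrpl39 (0.27). Pkp3 went from a mean of 208 in control to 76.2 with DOX and 55.0 with both agents, and Dnajc2 from 365 to 656 and 665.

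Of 16 other noncoding snoRNA hosts, 14 were listed and 13 were tested, and 2 of the 13 rose past both limits with DOX, a share near the 15.3% of all tested genes called in either direction. Their median was 0.41 against 0.09 for all tested genes. Snhg15 rose most, from 2.54, 10.8 and 7.90 in control replicates 1, 3 and 5 to 29.4, 46.4, 42.1 and 49.8 in DOX replicates 1 to 4. Against control its log2 difference was 2.55 ± 0.38 for DOX (adjusted p = 0.00039) and 2.27 ± 0.40 for both agents (adjusted p = 0.0018). Snhg17 rose by 1.07 ± 0.32 (adjusted p = 0.028) with DOX and by 1.31 ± 0.35 (adjusted p = 0.018) with DOX+IL-17A. Without control replicate 1, Snhg15 was the only one of the 13 past both limits with DOX, and the median was -0.11.

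With both agents, Snhg15 and Snhg17 rose and Zfas1 fell against control, 3 of 13 where 12.9% of all tested genes were called. The mean of Zfas1 went from 333 ± 149 (SD, n = 3) to 146 ± 31.7 (SD, n = 3), by -1.08 ± 0.33 (adjusted p = 0.034), and its lowest control library overlapped with the DOX+IL-17A libraries. Against IL-17A alone, DOX+IL-17A raised 3 of the 13 (Snhg9, Snhg15 and Snhg17) and lowered 1 (Zfas1), the last from a mean of 457. In that comparison 9.84% of all tested genes were called in either direction. In limma 0 of the 13 passed for IL-17A against control or for DOX+IL-17A against DOX, and voom, DESeq2 and edgeR also called 0 there. At an unadjusted p under 0.05 in limma there were 1 and 2 of the 13, against 3.08% and 6.35% of all tested genes.

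**Figure D5:**
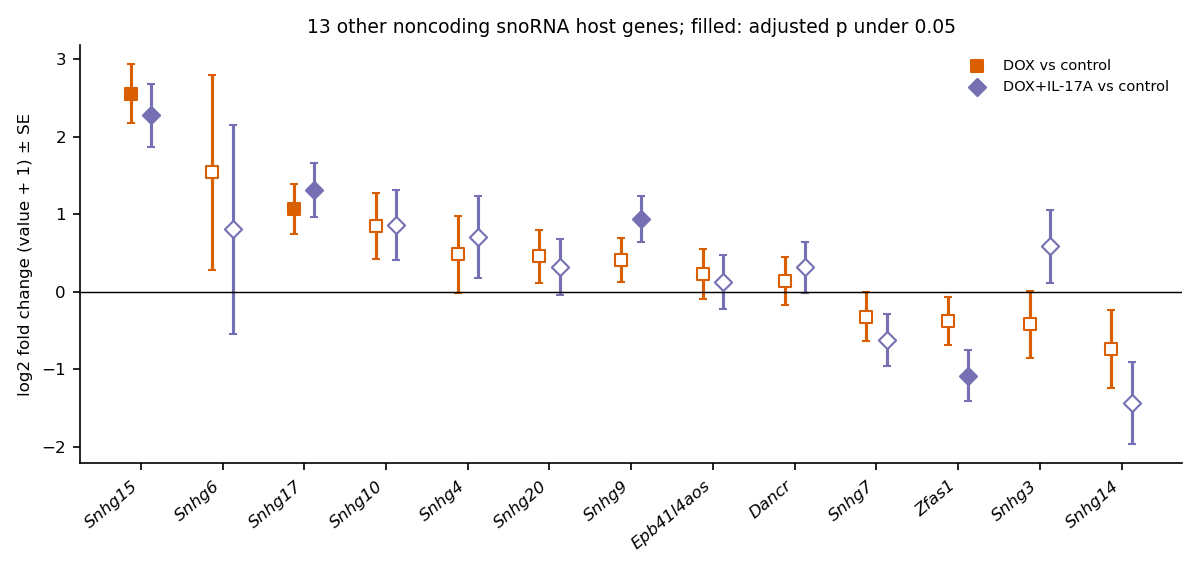
Log2 fold change with its SE for the 13 other noncoding snoRNA host genes tested, for DOX and for DOX+IL-17A against the same control libraries, filled where the adjusted p was under 0.05. Snhg15 and Snhg17 are filled above zero in both, Snhg9 (0.94) and Zfas1 (-1.08) are filled for DOX+IL-17A, and Snhg6 has the widest SE (1.26 for DOX).

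Among 24 protein-coding hosts of snoRNAs, all tested, 2 rose (Taf1d and Nop56) and 2 fell (Eef2 and Hspa8) past both limits with DOX, with a median of -0.19. These 4 of 24 are a share near the 15.3% of all tested genes. Taf1d, a subunit of an RNA polymerase I factor, rose by 1.04 ± 0.23 (adjusted p = 0.0061), and Hspa8, a constitutive heat shock protein, fell by 1.13 ± 0.28 (adjusted p = 0.011). With DOX+IL-17A 1 fell, the ribosomal protein gene Rpl3, from 1161 ± 271 (SD, n = 3) to 486 ± 89.5 (SD, n = 3). Rpl3 fell by 1.24 ± 0.21 (adjusted p = 0.0013), and DOX alone gave -0.997 ± 0.20 (adjusted p = 0.0027), just short of the 2-fold limit. Without control replicate 1, 1 rose (Nop56) and 1 fell (Rpl3) past both limits with DOX, and the median was -0.49. Against IL-17A alone, DOX+IL-17A raised 1 of the 24 (Nop56) and lowered 2 (Rpl3 and Rpl23), where 9.84% of all tested genes were called. DESeq2 and edgeR did not call Nop56 there.

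The 16 genes of the snoRNA-protein particle (snoRNP) and its assembly, all tested, had a median of 0.67 for DOX, 14 of them above zero, and of 0.77 for both agents, all 16 above zero. Past both limits with DOX were 2, Nolc1 (1.33 ± 0.33, adjusted p = 0.010) and Nop56 (1.20 ± 0.29, adjusted p = 0.0089), and with DOX+IL-17A 1, Nolc1 (1.39 ± 0.35, adjusted p = 0.014). Both counts of 16 are shares below those of all tested genes, 15.3% and 12.9%. Nolc1 is a nucleolar chaperone of snoRNPs and Nop56 a core protein of the box C/D kind. Without control replicate 1 the numbers that rose past both limits were 5 and 3, and the medians were 0.53 and 0.78. The medians of all tested genes in these fits were 0.05 and 0.01, and the share of all genes called in them is not given here. Against IL-17A alone, DOX+IL-17A raised 3 of 16, Nhp2, Nolc1 and Nop56, past both limits, where 9.84% of all tested genes were called. DESeq2 called only Nhp2 and Nolc1 there, and edgeR only Nolc1.

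Of 17 genes of nonsense-mediated decay and the exon junction complex, 16 were tested. With DOX, Smg8 (1.63 ± 0.48, adjusted p = 0.024) and Upf3b (1.08 ± 0.22, adjusted p = 0.0036) rose, and Smg6, the endonuclease of the pathway, fell from 79.9 ± 13.7 (SD, n = 3) to 23.5 ± 2.78 (SD, n = 4). These 3 of 16 are a share near the 15.3% of all tested genes. Against control, Smg6 differed by -1.72 ± 0.24 on the log2 scale for DOX and by -1.84 ± 0.26 for both agents, and by -1.32 ± 0.26 with DOX+IL-17A against IL-17A. With both agents against control, Smg8 (1.65 ± 0.51, adjusted p = 0.036) was called beside Smg6, where 12.9% of all tested genes were called. In that comparison Smg6 alone was called with voom, and also without control replicate 1. Without control replicate 1, Smg6 was the only gene of the list past both limits with DOX, and the median of the 16 was 0.40 in place of 0.20. Of the 8 genes of the mTORC1 complex and regulators of TOP messages, 0 passed in any comparison in limma, voom, DESeq2 or edgeR. For DOX 1 of the 8 had an unadjusted p under 0.05 in limma, and the median was 0.28. By adjusted p 22.1% of all tested genes passed there, and the share at an unadjusted p can only be as large or larger.

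None of the 13 genes of paraspeckle proteins, the partners of Neat1, passed both limits in limma, voom or edgeR, while 4 with DOX and 3 with DOX+IL-17A had an unadjusted p under 0.05 in limma. DESeq2 called 1, Hnrnpr with DOX+IL-17A. The medians were -0.41 and -0.37. By adjusted p alone Hnrnpr and Dazap1 fell with DOX, and Hnrnpr, Hnrnpm and Sfpq with DOX+IL-17A. These are 2 and 3 of 13, where 22.1% and 17.7% of all tested genes passed in either direction. At an unadjusted p those shares can only be as large or larger. By adjusted p, 0 of the 13 fell with DOX and 1 with DOX+IL-17A when control replicate 1 was left out. Sfpq, one of the core proteins, had a mean of 516 ± 148 (SD, n = 3) in control, 318 ± 25.0 (SD, n = 4) with DOX and 280 ± 14.4 (SD, n = 3) with both agents. Of the 11 speckle genes, the partners of Malat1, 0 passed in any comparison in limma, voom, DESeq2 or edgeR, with 0 for DOX and 2 for DOX+IL-17A at an unadjusted p under 0.05 in limma, and the median with DOX was 0.23.

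Of 11 other long noncoding RNAs 6 were tested, and 1 fell in each of DOX and DOX+IL-17A against control, where 15.3% and 12.9% of all tested genes were called. With DOX it was Jpx, an activator of Xist (-1.18 ± 0.32, adjusted p = 0.016), at 3.43 ± 1.07 (SD, n = 3) in control and 0.927 ± 0.304 (SD, n = 4) with DOX. With both agents it was Airn (-1.83 ± 0.56, adjusted p = 0.036), at 5.25 ± 4.03 (SD, n = 3) and 0.443 ± 0.336 (SD, n = 3), the latter near what 3 reads are worth (0.183 to 0.614 by library). Without control replicate 1 the numbers that fell were 3 and 2, and the share of all genes called in those fits is not given here. No mitochondrial transcript was listed (0 symbols), so that sign of RNA quality was not used here.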

How the data were processed

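Cultured 4T1-Thy1.1 cells were profiled in 13 libraries of 4 groups taken from the labels. Per the study's methods and the submitters' processing notes, which alone name Trimmomatic, the authors made poly(A)-primed 3′ libraries with the QuantSeq FWD kit, sequenced single 75-base reads, checked them with FastQC, trimmed them with Trimmomatic, aligned them to mm10 with STAR, assigned reads to genes with featureCounts and normalized by TMM. The unit of the deposited values is a normalized signal (TMM-scaled CPM), and no fold changes or p-values came with them. The table had 13223 entries, and 1 identical second entry was dropped. The gene annotation and the strand setting of the counting are not given in the sources used here. Whole reads were recovered from the signal by dividing by the value of 1 read in each library, and 100% of values came out whole within 0.01.

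Genes with enough recovered reads (filterByExpr in edgeR 4.0.16) were tested with limma 3.58.1 with trend on log2(value + 1), in R 4.3.3, over all 13 libraries with group as the only term and Benjamini-Hochberg adjustment over 12319 genes. A gene was called at an adjusted p under 0.05 with a fold above 2, the limits the study used, and the interaction by adjusted p alone. Count models (limma-voom, DESeq2 1.42.0, edgeR quasi-likelihood on recovered reads), scaling, filters, pseudocount, a replicate block and leaving out each library were alternatives. The steps were tested on simulated data. Replicates of a group differed by more than sampling noise (chi-square per degree of freedom at least 7.65 in 15 pairs), so none was counted as a duplicate. Exact permutation tests were made with SciPy 1.17.1 on Python 3.11.15. Named genes were the 7 members, from each list up to 3 called genes with the largest increase and 3 with the largest decrease, and 2 nearest profiles per member. Snhg6, and the genes named by adjusted p alone or only in DESeq2, were chosen after their values were seen. So were the list counts without control replicate 1 and by the count models, and 1 result of these is not reported here. The members and lists were chosen with earlier results of these data known. Annotation and transcript ends are GENCODE M21, promoters RefSeq (GRCm38.p6), where 6 of the 7 members were matched.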

Additional observations from a re-analysis of the deposited data

How the results depend on the processing

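Each log2 fold change of a member was recomputed under other settings and without each library in turn. Of 917 such values, 857 kept their direction and their side of the adjusted p of 0.05, 30 changed sign, 20 lost and 10 gained the threshold. Part of the 857 kept their direction by construction. For 2 groups, leaving out a library of another group, fitting only the groups compared or changing the filter leaves the log2 fold change unchanged. Snhg1 for DOX against control stayed at 1.591 in these fits, with an adjusted p between 0.042 and 0.107. For such values only the side of the threshold was tested.

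For DOX against control, the number of members called was between 1 and 4 when single libraries were left out (1 without control replicate 1, 4 without control replicate 3). For DOX+IL-17A against control it was 2 in place of 1 with DESeq2, with edgeR and with the replicate block (Neat1 and Malat1) and with scaling by library size (Neat1 and Snhg5), 3 by adjusted p alone, and 1 to 2 without single libraries. For DOX+IL-17A against IL-17A it was 2 in place of 1 by adjusted p alone, and 0 to 1 without single libraries. The other 3 comparisons gave 0 throughout.

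Scaling by library size moved the median of all tested genes from 0.09 to 0.24 for DOX against control, from 0.04 to 0.20 for DOX+IL-17A against control and from 0.02 to 0.22 for DOX+IL-17A against IL-17A. Relative to that median the direction of Malat1 under DOX stayed negative, although its value turned from -0.16 to 0.018. Snhg8, the host median of DOX+IL-17A against IL-17A, turned from -0.09 to 0.13, but stayed below the median of all tested genes. For the difference of IL-17A effects, Snhg5 (-0.04) turned to 0.0025 with voom, 0.022 with DESeq2 and 0.00016 with library size scaling, and Neat1 (0.12) to -0.21 with the replicate block.

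Without single libraries, ranges that crossed zero were these. For DOX against control Malat1 lay between -0.51 and 0.13. For DOX+IL-17A against control, Snhg1 lay between -0.092 and 1.60 and Snhg8 between -0.17 and 2.10. For DOX+IL-17A against DOX, Gas5 lay between -0.23 and 0.061, Snhg5 between -0.028 and 0.26 and Neat1 between -0.50 and 0.11. For IL-17A against control, Gas5 lay between -0.032 and 0.26, Snhg8 between -0.086 and 2.19, Neat1 between -0.61 and 0.031 and Malat1 between -0.40 and 0.24. For DOX+IL-17A against IL-17A, Snhg8 lay between -1.05 and 0.56 and Snhg12 between -0.23 and 0.22. For the difference of IL-17A effects, Snhg5 lay between -0.15 and 0.14 and Neat1 between -0.29 and 0.48.

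Libraries that share a replicate number deviated together only in part. Over 13 such pairs the correlation of deviations across genes averaged 0.15 (-0.18 to 0.49, 8 of 13 above 0.1). Over 50 other pairs it averaged -0.04 (-0.56 to 0.47, 13 of 50 above 0.1). Libraries of the same number were thus more alike on average, with ranges that overlapped. The main fit did not take the numbers as pairs, and a block by replicate number was an alternative. The replicate block changed the number of members called only for DOX+IL-17A against control. Depth limits Neat1 most, with 17 to 351 reads per library. Leaving out control replicate 1 moved the counts of several gene lists, as given with those lists, without the share of all genes called in those fits. The causes of these changes were not tested.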
